A study of Bos taurus with 12 samples.

Results

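The genes described here encode 4 receptor tyrosine kinases (PDGFRA, PDGFRB, MET and KIT) and 4 of the ligands that act on them (PDGFA, PDGFB, HGF and KITLG). They were chosen by name, and every probe set that the array annotation gives exactly 1 of these gene symbols was read. A probe set is the group of short array probes that together measure a transcript. Of the 8 genes, 6 had at least 1 such probe set, which gave 11 probe sets of 24016 that are not controls and 6 genes of 9155 on the array. PDGFA and PDGFB had none and were not analysed here, so the PDGF system is described from its receptors alone. Probe sets of 1 gene are told apart by the GenBank record each was designed from, with the S1 or A1 ending of its array name where 2 share a record.

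Receptor tyrosine kinases sit in the cell membrane and pass on a signal when a ligand outside the cell pairs 2 of them. PDGFRA and PDGFRB answer to the platelet-derived growth factors, are typical of fibroblasts and of pericytes, the cells that wrap small vessels, and drive their division and movement. HGF (hepatocyte growth factor) is as a rule made by mesenchymal cells and acts on MET of nearby epithelium, and in the mouse it promotes branching of mammary ducts. KITLG (stem cell factor) acts on KIT, which is known from mast cells, melanocytes and blood stem cells and, in the mouse mammary gland, from luminal progenitor cells.

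The tissue came from 6 dry, pregnant Holstein cows biopsied 3 weeks before calving. BrdU, insulin and hydrocortisone were in the medium in which explants of all cows were kept for 2 h, and the labels and the study's methods give the hormone concentrations in different units. Intralobular stroma and epithelium of each cow were then cut by laser from stained frozen sections, with vessels and evident immune cells avoided in the stroma, and lysates of several slides were pooled per capture. The 12 RNAs (6 of stroma and 6 of epithelium) were amplified and hybridized to a Bovine GeneChip each. The labels give a lactation number of 3 for cow 1, 2 for cow 2 and 1 for the other 4 cows, which the methods call multiparous.

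Values are log2 intensities, so a difference of 1 is a doubling. The medians of the 12 arrays lay between 2.95 and 3.08. Where the mean of a tissue was below these medians, the size of the fold rests partly on background, and a gene with both means below them was given no direction. Differences are stroma minus epithelium within cow, with the standard error (SE) and the 95% interval of a limma model with tissue and cow as terms. A gene is called when its p, corrected over the 24016 probe sets (Benjamini-Hochberg), is under 0.05. Over the whole table, 422 probe sets were higher in stroma and 389 in epithelium, so 52.0% of the calls were in stroma. That share was 62.9% when arrays were aligned at the median of their brighter 42% of probe sets, which moved the median difference of the table to 0.240, against 0.066. Under the 2 filters on dim probe sets it was 49.0% (brightest 42%) and 44.8% (above the array median on at least 8 arrays).

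The captures carried the markers of their labelled tissue. Of 13 fibroblast markers, 11 were higher in stroma and 0 in epithelium, and of 16 luminal epithelial markers 0 were higher in stroma and 13 in epithelium. Luminal markers still gave signal in stroma, with array means of 4.47 to 5.85, against 8.05 to 8.79 in epithelium. CSN3, a casein, averaged 10.86 in stroma and 12.06 in epithelium. Of 6 myoepithelial markers, 5 were not called, among them KRT5 (9.02 in stroma and 8.72 in epithelium). The added control RNAs averaged 4.15 to 10.99 on the stroma arrays and 3.07 to 6.58 on the epithelium arrays, with the highest values in the stroma of cows 5 (10.99) and 6 (10.39). The gap between the 3′ and the 5′ probe sets of GAPDH, a measure of RNA integrity, ran from 2.31 to 4.75 in stroma and from 0.93 to 3.59 in epithelium. It was taken between log2 RMA values of amplified RNA. The study reports low 3′ to 5′ ratios of GAPDH and high RNA integrity numbers, and judged its starting RNA suitable. It does not state from which values its ratio was taken, so the 2 measures may not be alike.

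The PDGF receptors were the members called between the tissues, and both were higher in stroma. KITLG, not called, had a difference of 1.64, near the 1.76 of PDGFRB. At the probe set with the highest mean of each gene, 2 of the 6 genes were called higher in stroma, 0 in epithelium and 4 in neither, where 2.46% of all genes were called in stroma and 2.18% in epithelium. Counted by probe set, 2 of 11 were called in stroma and 0 in epithelium, against 1.76% and 1.62% of the whole table. All stroma arrays lay above all epithelium arrays at 3 of the 11 and below them at 0, against 2.09% and 1.34% of the whole table. Stroma was higher in all 6 cows at 5 of the 11 and lower in all 6 at 0, against 6.92% and 4.95% of the whole table. An unadjusted p under 0.05 was reached by 6 of the 11, against 17.0% of the whole table. HGF, with both means below the array medians, is among these 6 and among the 5 higher in all cows. Those 5 also hold KITLG, with differences of 0.00 and 0.09 in cows 5 and 6. Of the 11 probe sets, 9 were among the 42% with the highest mean, and the other 2 were those of the ligands HGF and KITLG.

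**Figure D1:**
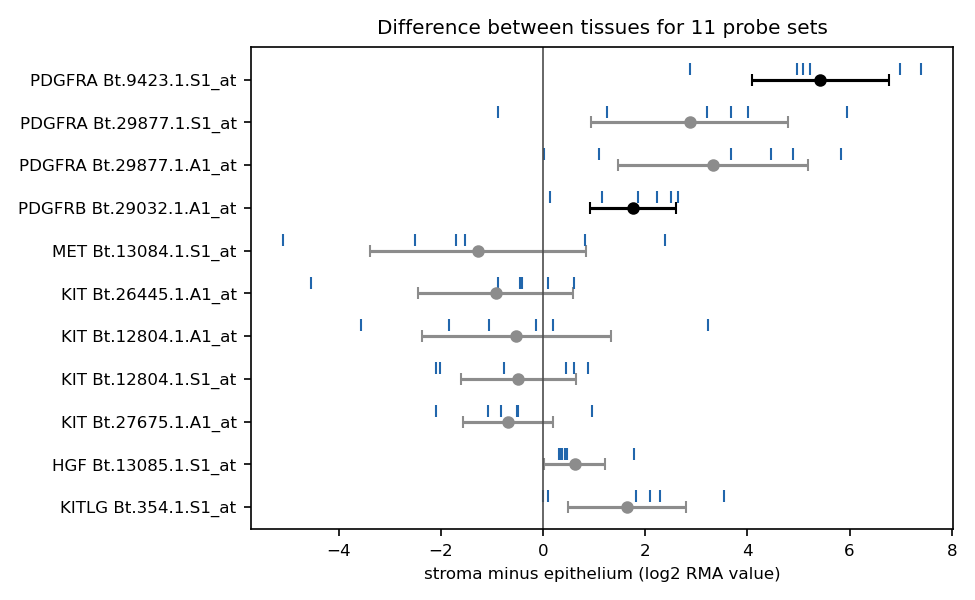
Stroma minus epithelium difference (log2 RMA value) of the 11 probe sets. Circles are means over 6 cows with the 95% interval of the limma model, black where the adjusted p was under 0.05 and grey otherwise, and blue ticks are the 6 cows. Only 1 of the 3 PDGFRA probe sets (difference 5.42) and the PDGFRB probe set (1.76) are black, and the 4 KIT probe sets and MET lie left of 0 with intervals that cross it.

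PDGFRA, the receptor that binds the A, B and C chains of PDGF and marks fibroblasts, showed the widest difference among the members. Its probe set with the highest mean (AW425646) had log2 values with a lowest of 5.65, a median of 8.11 and a highest of 9.36 in the 6 stroma arrays, against 1.95, 2.56 and 3.32 in the 6 epithelium arrays. Every stroma array lay above every epithelium array. The mean was 7.97 ± 1.35 (SD, n = 6) in stroma and 2.54 ± 0.49 (SD, n = 6) in epithelium, a difference of 5.42 (SE 0.57, 95% interval 4.08 to 6.77, limma adjusted p = 0.00438). That is 42.9-fold, with the epithelial mean below the array medians. The difference was smallest in cow 5, at 2.87, and largest in cow 6, at 7.40, and the call held in all 14 alternatives run for this probe set (adjusted p up to 0.0233). In captured tissue, more cells of a type and more RNA per cell cannot be told apart, here and in all comparisons that follow.

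The other 2 PDGFRA probe sets, both designed from 1 sequence record (AY486456), pointed the same way on average but were not called. AY486456-S1 had a lowest, median and highest value of 2.83, 6.75 and 9.62 in stroma, against 3.07, 3.61 and 3.87 in epithelium. The groups overlapped because the stroma of cow 6 gave 2.83, the lowest value of all 12 arrays. Its difference was 2.87 (SE 0.82, 95% interval 0.94 to 4.79, limma adjusted p = 0.133), with stroma higher in 5 of 6 cows. AY486456-A1 had 3.11, 6.27 and 7.98 in stroma, against 2.06, 2.23 and 3.09 in epithelium, and its groups did not overlap. Its difference was 3.33 (SE 0.79, limma adjusted p = 0.0810). It was called without the cow block (adjusted p = 0.0326), with cow as a random block (0.0264), in the brightest 42% of probe sets (0.0283) and without cow 6 (0.0422), and AY486456-S1 without cow 6 (0.0468).

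The 3 PDGFRA probe sets did not rank the stroma arrays of cows 5 and 6 alike. In the stroma of cow 6 they gave 9.36, 2.83 and 3.11, so AW425646 had its highest value where the other pair had their lowest. In the stroma of cow 5 they gave 5.65, 7.88 and 7.21, the lowest stroma value at AW425646 and the next to highest at the other pair. In the stroma of cow 4 all 3 were high, at 9.07, 9.62 and 7.98. Control RNA averaged 9.07, 10.99 and 10.39 on the stroma arrays of cows 4, 5 and 6, and the GAPDH gap was 3.74, 2.31 and 4.75 there. Their part in the spread was not tested.

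**Figure D2:**
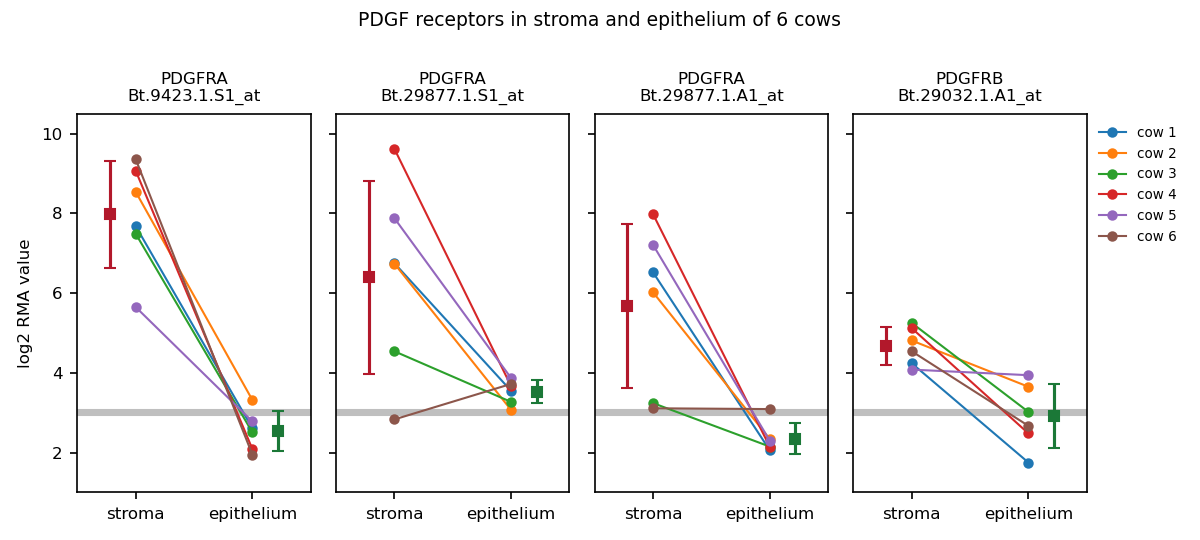
Log2 RMA values of the 3 PDGFRA probe sets and the PDGFRB probe set in stroma (left) and epithelium (right), in panels that follow the order of the text. Lines connect stroma and epithelium of the same cow, squares are means with SD (n = 6), and the grey band spans the medians of the 12 arrays. In the first panel all stroma points (5.65 to 9.36) lie above all epithelium points (1.95 to 3.32), while cow 6 runs almost level in the third panel.

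PDGFRB, the receptor of the B and D chains that marks pericytes and many fibroblasts, was also higher in stroma, by less. Its single probe set had a lowest of 4.08, a median of 4.68 and a highest of 5.25 in stroma, against 1.75, 2.84 and 3.94 in epithelium. The groups did not overlap, and the stroma values were close together (mean 4.67 ± 0.47, SD, n = 6) while those of epithelium were spread (2.92 ± 0.80, SD, n = 6). The difference was 1.76 (SE 0.36, 95% interval 0.91 to 2.61), or 3.38-fold against an epithelial mean below the array medians, with an adjusted p of 0.0494 from limma, just under the threshold. The difference was only 0.14 in cow 5. The call was lost without cow 1 (adjusted p = 0.140), cow 2 (0.102), cow 3 (0.124), cow 4 (0.132) or cow 6 (0.122), and over 15 alternatives the adjusted p ran from 0.0131 to 0.140.

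Markers of fibroblasts, of endothelium and of plasma cells were also called higher in stroma, where 2.46% of all genes were. The mean over the 13 fibroblast markers ran from 8.09 to 9.02 on the stroma arrays and from 2.86 to 4.84 on the epithelium arrays. That over the 13 pericyte and smooth muscle markers ran from 4.57 to 5.17 in stroma and from 3.50 to 4.47 in epithelium. Of these 13, 11 were not called, among them ACTA2, smooth muscle actin (difference 1.58, adjusted p = 0.345), and CSPG4 (0.29, adjusted p = 0.485). Only MCAM, an adhesion molecule of pericytes and endothelium, and MYLK, the myosin light chain kinase, were called, both in stroma, and KCNJ8 and ANGPT1 lay below the array medians in both tissues. Of 14 endothelial markers, 7 were called in stroma, with array means of 5.15 to 6.16 in stroma and 2.54 to 3.00 in epithelium. Of 6 B and plasma cell markers, 3 were called in stroma, IGHM, JCHAIN and POU2AF1, with array means of 5.36 to 7.48 in stroma and 2.49 to 3.64 in epithelium over the 6. IGHM, an antibody heavy chain, averaged 11.92 in stroma and 4.35 in epithelium (limma adjusted p = 0.00123). The other 3 were not called. MS4A1, a marker of B cells, was below the array medians in both tissues (1.96 in stroma and 1.68 in epithelium). CD79A averaged 3.65 in stroma and 2.46 in epithelium (limma adjusted p = 0.447), and MZB1 3.92 and 2.41 (0.0654). Of 8 adipocyte markers, 1 was called in stroma, FABP4 (difference 4.02, limma adjusted p = 0.00761). In cow 5, where PDGFRB and the AW425646 probe set of PDGFRA differed least, the pericyte and smooth muscle mean was 4.69 in stroma and 4.47 in epithelium, and the fibroblast mean was 8.09 and 4.84. The part of these cells in the receptor differences was not tested.

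KIT gave signal in both tissues, and none of its 4 probe sets was called. At the probe set with the highest mean (CK780148) the lowest, median and highest values were 4.12, 8.84 and 9.29 in stroma, against 8.66, 9.02 and 9.70 in epithelium. All arrays but the stroma of cow 5, at 4.12, lay between 8.61 and 9.70. The mean was 8.16 ± 2.00 (SD, n = 6) in stroma and 9.10 ± 0.44 (SD, n = 6) in epithelium, a difference of -0.93 (SE 0.64, 95% interval -2.45 to 0.58, limma adjusted p = 0.509). Without cow 5 the difference was -0.21 (adjusted p = 0.773). The interval over all cows spans 0 and is wide, so the tissues are shown neither to differ nor to be alike.

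The other 3 KIT probe sets had lower means in stroma as well, with groups that overlapped. AF263826 had 2.98, 5.77 and 6.92 in stroma, against 3.71, 6.42 and 7.59 in epithelium (difference -0.53, SE 0.79). BE667301 had 4.91, 5.04 and 6.81 in stroma, against 4.47, 5.89 and 7.00 in epithelium (difference -0.49, SE 0.48). CK846261 had 3.19, 3.57 and 5.13 in stroma, against 3.81, 4.36 and 5.76 in epithelium (difference -0.68, SE 0.37). Their adjusted p values from limma were 0.765, 0.645 and 0.408. Epithelium was the higher tissue in 4, 3 and 5 of the 6 cows at these probe sets, and in 4 of 6 at the one with the highest mean. Averaged over the 4 KIT probe sets, the difference was -0.66 (limma unadjusted p = 0.0497, adjusted p = 0.279), also not called.

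The KIT probe sets did not rank the arrays alike. The stroma of cow 5 was the lowest stroma array at CK780148, at 4.12, and the highest at AF263826, at 6.92. The stroma of cow 6 gave 9.28 and 2.98 at the same pair of probe sets. Over the brighter 42% of the table, the stroma array of cow 5 stood apart as the lowest of its group in 2.29% of 10087 probe sets, the highest such share of any array, where the other 11 ranged from 0.0694% to 1.17%.

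KITLG, the ligand of KIT, had a higher mean in stroma but was not called. It had a lowest of 2.76, a median of 4.12 and a highest of 5.19 in stroma, against 1.64, 2.31 and 2.95 in epithelium. In cows 1 to 4 stroma was higher by 1.81 to 3.55, and in cows 5 and 6 the 2 captures were close, with differences of 0.00 and 0.09. The mean was 3.90 ± 0.91 (SD, n = 6) in stroma and 2.26 ± 0.53 (SD, n = 6) in epithelium, below the array medians. The difference was 1.64 (SE 0.49, 95% interval 0.48 to 2.79), or 3.11-fold, with a limma adjusted p of 0.151. It passed without the cow block (limma adjusted p = 0.0451) and with cow as a random block (0.0393). The study, which also fitted tissue without cow, lists KITLG among the growth factors higher in stroma. Its fit was made with another program, on probe sets kept by detection calls.

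**Figure D3:**
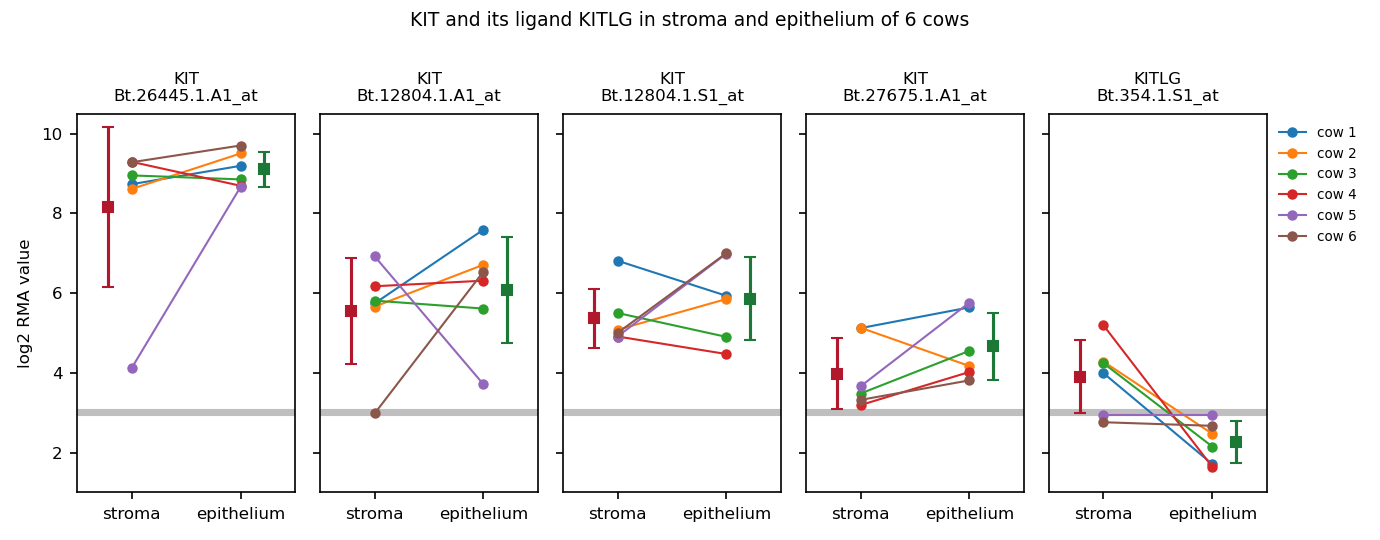
Log2 RMA values of the 4 KIT probe sets and the KITLG probe set in stroma (left) and epithelium (right), drawn as for the PDGF receptors and in the order of the text. In the first panel the stroma of cow 5 (4.12) stands far below the other 11 arrays (8.61 to 9.70), and in the last panel the lines of cows 5 and 6 are nearly level.

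Within cows, KITLG was set beside KIT. The stroma minus epithelium difference of KITLG exceeded that of KIT, at the probe set with the highest mean, in 6 of 6 cows, by 0.51 to 4.54 and by 2.57 ± 1.31 on average (SD, n = 6). The 4.54 is that of cow 5, whose stroma gave 4.12 at this KIT probe set. At BE667301 and CK846261 the same order held in 6 of 6 cows, and at AF263826 in 5 of 6, with KITLG minus KIT at -3.22 in cow 5. At CK780148, in 4 cows (1, 2, 5 and 6) KITLG was higher in stroma and KIT in epithelium, and in cow 5 KITLG was higher by less than 0.01. In cows 3 and 4 both were higher in stroma, KIT by 0.10 and 0.60. This comparison of 2 differences is a description and was not tested.

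Of 14 markers of mast cells, which carry KIT, 5 had a probe set, and 0 of these were called. Their mean ran from 3.12 to 3.72 on the stroma arrays and from 2.48 to 3.16 on the epithelium arrays. FCER1G, a receptor subunit that other immune cells share, averaged 6.18 in stroma and 4.61 in epithelium (adjusted p = 0.30) and was higher in stroma in 6 of 6 cows. TPSB2, a tryptase of mast cell granules, averaged 3.13 in stroma and 2.52 in epithelium, and HDC, which makes histamine, averaged 1.98 in stroma and 1.71 in epithelium, below the array medians. FCER1A averaged 2.88 in stroma and 1.89 in epithelium, and SLC18A2 averaged 2.83 in stroma and 3.02 in epithelium. CPA3 and MS4A2 were not analysed here.

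MET, the receptor of HGF, varied widely from cow to cow in both tissues. Its probe set had a lowest of 1.79, a median of 3.19 and a highest of 6.10 in stroma, against 3.32, 4.39 and 7.04 in epithelium, and the groups overlapped. Epithelium was higher in 4 of 6 cows. The mean was 3.48 ± 1.65 (SD, n = 6) in stroma and 4.75 ± 1.42 (SD, n = 6) in epithelium, a difference of -1.27 (SE 0.90, 95% interval -3.38 to 0.84, limma adjusted p = 0.522). The differences of single cows ran from -5.09 in cow 6 to 2.38 in cow 3. Without cow 6 the mean difference was -0.51 (adjusted p = 0.801). All 6 epithelium arrays but only 4 of 6 stroma arrays were above the array medians. The exceptions were the stroma of cows 5 (1.79) and 6 (1.95), which also had the most control RNA. Whether the control RNA has a part in these values was not tested.

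HGF was below the array medians on nearly every array. It had a lowest of 2.08, a median of 2.52 and a highest of 3.71 in stroma, against 1.75, 1.85 and 2.59 in epithelium. Only 1 of 12 arrays, the stroma of cow 6, was above the highest array median. The means, 2.66 ± 0.67 (SD, n = 6) in stroma and 2.04 ± 0.38 (SD, n = 6) in epithelium, were each under the medians of the arrays, and HGF is given no direction. The difference was 0.62 (SE 0.25, limma adjusted p = 0.281). Of the HGF and MET pair, then, only the receptor gave signal above the array medians in a tissue mean.

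**Figure D4:**
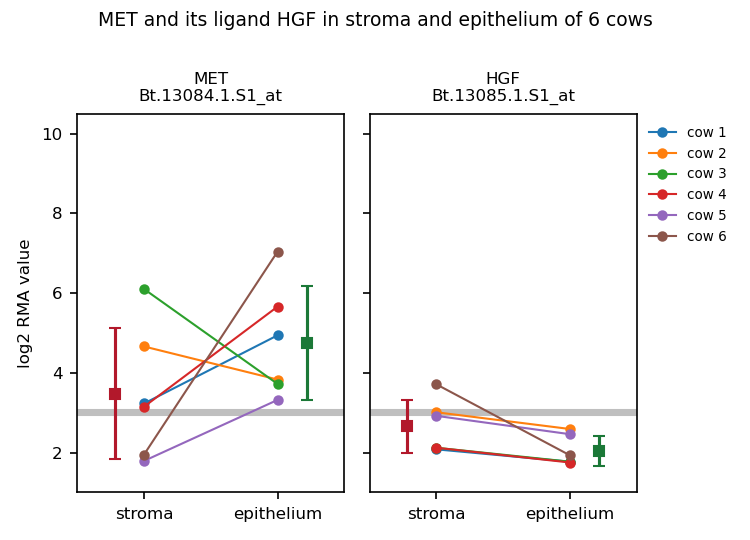
Log2 RMA values of MET and HGF in stroma (left) and epithelium (right), drawn as for the PDGF receptors. MET lines cross, with 4 cows higher in epithelium and 2 in stroma, and all HGF points but 1 lie within or below the grey band of array medians.

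The genes whose values followed a member most closely over the 12 arrays differed by receptor. For PDGFRA the 5 highest Pearson correlations, among genes within the brightest 42%, were with FGL2 (r = 0.985), ADGRD1 (0.980), FHL1 (0.977), EGFLAM (0.968) and CD34 (0.966), the last a surface protein of endothelial and some stromal cells. For PDGFRB they were with DLK1 (0.913), CD300LG (0.909), CD34 (0.909), HDAC7 (0.900) and NOCT (0.900). All 9 of these genes were called higher in stroma, and the 12 arrays fall into 2 tissues, so a correlation over them also holds the difference between the tissues. For KITLG they were with DPT (0.939), a matrix protein of fibroblasts, PES1 (0.919), ADGRF5 (0.905), DPYSL2 (0.889) and RGS5 (0.888), a pericyte marker.

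For KIT the closest genes were MRFAP1L1 (r = 0.977), RAC1 (0.961), IBTK (0.954), RBBP4 (0.951) and CCAR1 (0.934), none of them called. These rested on 1 array. Without the stroma of cow 5, a choice made after the values were seen, the 5 correlations were 0.379 to 0.561. For MET they were PSMD10 (0.907), EBP (0.854), IRAK4 (0.841), RPS14 (0.834) and PPP3R1 (0.823), also none of them called, and no single array lowered these below 0.773. HGF was left out because both its means were below the array medians.

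In the reference gene order (assembly ARS-UCD2.0), PDGFRA, KIT and KDR, the main VEGF receptor, are next to one another, and CSF1R, the receptor of macrophage growth factor, is next to PDGFRB. KIT differed by -0.93 and KDR by 2.16 (limma adjusted p = 0.419) beside 5.42 of PDGFRA, and CSF1R by 0.77 (adjusted p = 0.336) beside 1.76 of PDGFRB. These differences between neighbours were not tested.

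Beyond the receptors and ligands, few genes of these pathways were called. Of 144 other pathway genes in 8 lists, 84 had a probe set with 1 symbol, and 5 of these were called in stroma, 2 in epithelium and 77 in neither. That is 5.95% in stroma and 2.38% in epithelium, against 2.46% and 2.18% of all genes. The median difference of the 84 was 0.00, against 0.01 over all genes, and single genes went both ways.

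Proteins outside the cell that bind these ligands or receptors held 3 of the stromal calls. Of 10 co-receptors and binding proteins, 3 were higher in stroma and 0 in epithelium, with a median difference of 0.08. DCN (decorin), a collagen proteoglycan that also binds MET, averaged 10.42 ± 0.45 (SD, n = 6) in stroma and 4.61 ± 1.31 (SD, n = 6) in epithelium, 56.2-fold (adjusted p = 0.00166). NRP1, a co-receptor of several growth factors, averaged 8.53 in stroma and 3.07 in epithelium, a difference of 5.46 (SE 0.30, limma adjusted p = 0.000492). SPARC, a matrix protein that binds PDGF, averaged 10.62 in stroma and 5.34 in epithelium (adjusted p = 0.00123). Each of the 3 was higher in stroma in 6 of 6 cows and stayed called in all 15 alternatives. CD9, a tetraspanin, had a lower mean in stroma, 10.15 against 11.47 in epithelium (adjusted p = 0.0700).

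Enzymes that activate the ligand precursors and their inhibitors were called in both directions. ST14 (matriptase), which cuts the HGF precursor, averaged 3.68 in stroma and 5.88 in epithelium, a difference of -2.20 (SE 0.35, limma adjusted p = 0.0209). SPINT1, an inhibitor of such enzymes, averaged 2.98 in stroma and 4.21 in epithelium (difference -1.23, adjusted p = 0.0481). PLAT, the tissue plasminogen activator, which also activates PDGF-C, averaged 6.71 in stroma and 4.70 in epithelium (difference 2.01, adjusted p = 0.0269). The other 9 of 12 were not called, among them SPINT2 (-1.85, adjusted p = 0.0620), PLAU (1.12), FURIN (-1.20) and HGFAC (0.00). The 3 calls were each lost without single cows: ST14 without cow 1, 2, 3 or 4 (adjusted p up to 0.0728), PLAT without cow 1, 3, 4, 5 or 6 (up to 0.0868) and SPINT1 without cow 1, 2, 4, 5 or 6 (up to 0.139). An intensity trend and robust prior also ended the calls of PLAT (0.0521) and SPINT1 (0.107). SPINT1 was further lost under both filters (0.0660 and 0.0633), after centring (0.0901) and as the mean of its 2 probe sets (difference -0.78, adjusted p = 0.153), and was called in 4 of 15 alternatives.

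PDGFRL, which resembles the outer part of a PDGF receptor without its kinase, was the sole other PDGF family gene analysed here. It averaged 3.58 ± 0.84 (SD, n = 6) in stroma and 2.12 ± 0.15 (SD, n = 6) in epithelium, below the array medians, a difference of 1.46 (SE 0.29, limma adjusted p = 0.0456). It was higher in the stroma of 6 of 6 cows, and leaving out cow 1, 2, 3, 5 or 6 ended the call, with an adjusted p of at most 0.136, as did a repeated quantile normalization (0.0598). PDGFC and PDGFD had no probe set with exactly 1 symbol in the annotation used and were not analysed here. The study lists PDGFC among the growth factors higher in epithelium. Its discussion sets higher PDGF in epithelium beside higher expression of a PDGF receptor in stroma, without naming which receptor.

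Genes of the signal inside the cell were not called in either tissue. This held for all 14 adaptors (median difference -0.01), all 26 kinases, lipid enzymes, RAS and STAT genes (-0.28) and all 16 negative regulators (0.21). Those with the lowest adjusted p were LYN, a SRC family kinase that acts below KIT (difference -1.84, limma adjusted p = 0.0550), and SPRED1 (2.16, adjusted p = 0.0600) and SPRY1 (1.89, adjusted p = 0.0752), which dampen receptor signals. SHC1 and CRK, which link receptors to RAS and its relatives, differed by 0.47 and -0.98. The 4 relatives of PDGF and KIT receptors and their ligands (CSF1R, CSF1, IL34 and FLT3LG) and the HGF relative MST1 were not called, with differences of 0.14 to 0.77. CSF1 has 2 probe sets, and its 0.14 is that of the one with the highest mean. The study lists CSF1 among the growth factors higher in stroma.

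**Figure D5:**
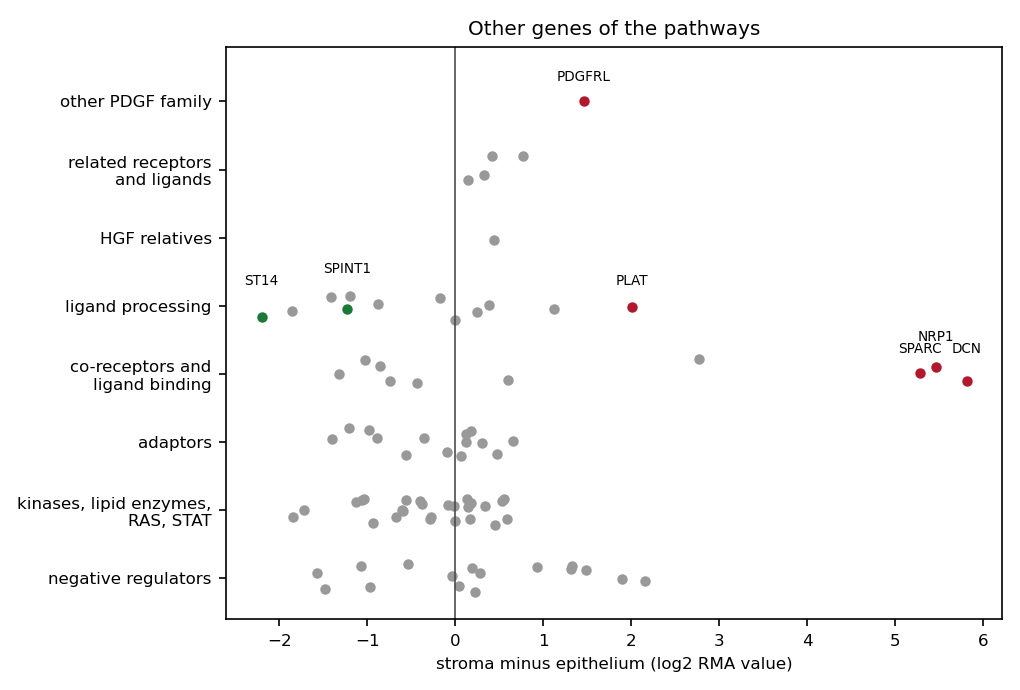
Mean difference over 6 cows, stroma minus epithelium on the log2 scale, of the 84 other pathway genes in 8 lists. Each point is a gene, red where called higher in stroma, green where called higher in epithelium and grey otherwise, with the called genes named. The 3 genes farthest right are SPARC, NRP1 and DCN, and all adaptors, kinases and negative regulators are grey.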

How the data were processed

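Intralobular stroma and epithelium of 6 cows were measured on 12 Affymetrix Bovine GeneChips. The deposited values are log2 intensities from RMA, run by the authors on these and other arrays together. RMA makes the distributions of single probes equal over the arrays it is run on, so differences shared by whole arrays are largely removed. The probe set values used here were not exactly equal in distribution, with array medians of 2.95 to 3.08. Detection calls were not used here. The table has 24128 probe sets, of which 112 are controls. Of the others, 13292 have exactly 1 gene symbol, 86 several and 10638 none, and the gene IDs of 13263 of the first were found in the annotation of assembly ARS-UCD2.0, with 0 symbols changed. A gene stands by its probe set with the highest mean, and all probe sets of a member are given.

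All 24016 probe sets were fitted in R 4.3.3 with limma 3.58.1, with tissue and cow as terms, so that no filter dropped a member, with Benjamini-Hochberg correction and a threshold of 0.05. The design text states that both tissues came from each of 6 animals, and titles number them alike. The arrays of a cow deviated together only weakly (correlations of 0.03 to 0.20). The fit was tested on simulated data. The number of arrays limits the precision. Tables were handled in Python 3.11.15 with pandas 2.3.3 and drawn with matplotlib 3.10.9.

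Named genes are all members, up to 4 genes of each pathway list with the largest differences among those called with 1 direction in 6 cows, plus the largest call in the other direction, and for each member above the array medians in a tissue the 5 bright genes most alike it over 12 arrays. Genes named though not called were chosen after their values were seen. The members and lists were chosen with earlier results of these data known. Alternatives were no cow block, cow as a random effect, a robust prior with an intensity trend, 2 filters on dim probe sets and 2 other normalizations. Further ones were each cow left out, cows 5 and 6 left out and averaging the probe sets of a gene. The study also used no cow block, but with another program and a filter by detection calls.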

Additional observations from a re-analysis of the deposited data

Results flagged for a closer look

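Of the 22 groups formed by 11 probe sets in 2 tissues, 4 held an array far from the other 5. The nominal chance rate is about 1 in 20, which is not the share found over the table. Over the 10087 brighter probe sets, the stroma of cow 5 stood apart as lowest in 2.29% and as highest in 1.47%. The stroma of cow 6 did so in 0.744% and 0.991%, and every other array also did so at some probe sets. Whether 4 of 22 is unusual beside the whole table was not tested. At KIT (CK780148), the stroma of cow 5 was at 4.12, and the other stroma arrays were at 8.61 to 9.29. At KIT (AF263826), the stroma of cow 6 was at 2.98, with the others at 5.66 to 6.92. At KIT (BE667301), the stroma of cow 1 was at 6.81, with the others at 4.91 to 5.50. At PDGFRA (AY486456-A1), the epithelium of cow 6 was at 3.09, with the others at 2.06 to 2.34, close to the array medians. The 3 KIT flags fell on 3 different stroma arrays, and the causes were not tested.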

How the results depend on the processing

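Of 154 values of the member probe sets under the alternatives, 138 kept their direction and their side of the threshold, 7 lost the call, 7 gained it and 2 changed sign. PDGFRA at its probe set with the highest mean was called in every one of its 14. PDGFRB lost its call with an intensity trend and robust prior (1.76, adjusted p = 0.0667) and without cows 5 and 6 (2.13, adjusted p = 0.0580), and its difference ran from 1.58 to 2.08 when single cows were left out. KITLG gained a call without the replicate block (1.64, adjusted p = 0.0451) and with a random block (1.64, adjusted p = 0.0393). Among the members and the 7 called pathway genes, leaving out the block changed 2 other calls, that of PDGFRA at AY486456-A1, gained, and that of PLAT, lost (adjusted p = 0.0578). KIT changed sign at AF263826 without cow 6 (range of -1.28 to 0.07 with single cows left out) and at BE667301 without cows 5 and 6 (0.29). HGF and KITLG were dropped by both filters. PDGFRA at AW425646 and at AY486456-A1 was dropped by the filter of at least 8 arrays above the array median. Over all probe sets, 225 to 384 were called in stroma and 180 to 294 in epithelium when single cows were left out, and 269 and 153 without cows 5 and 6. Of the pathway genes, 3 to 5 were called in stroma and 0 to 2 in epithelium with single cows left out, and in epithelium 4 were called without the replicate block and 1 after centring, which gave 7 in stroma.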
